A study of Mus musculus with 8 samples.

Results

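The AP-1 family was described through 8 genes, the FOS-family genes Fos, Fosb, Fosl1 and Fosl2, the JUN-family genes Jun, Junb and Jund, and Atf2. They were the rows of the deposited table that carry these symbols, 8 of 21879 genes. All 8 passed the filter on low counts, which left 11576 tested genes.

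AP-1 is a dimeric transcription factor of the basic leucine zipper (bZIP) class. JUN proteins pair with each other or with FOS proteins, whereas FOS proteins need a JUN partner to bind DNA, and ATF2 pairs with JUN and prefers the cyclic AMP response element. Growth factors, stress and DNA damage act on the family through the mitogen-activated protein (MAP) kinases, which raise transcription of Fos and Jun within minutes and phosphorylate JUN and ATF2 through the kinase JNK. In kidney tubule cells the family is known as an early responder to injury.

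Poly(A)-selected RNA was sequenced from TCMK-1, a transformed mouse kidney tubular epithelial line. The knockdown group held 4 libraries of cells with an shRNA against smgGDS plus cisplatin at 20 µM, and the control group held 4 libraries of cells with a control shRNA plus the same cisplatin dose. smgGDS is the product of Rap1gds1, a guanine nucleotide exchange factor and chaperone for small GTPases. All 8 libraries carried the drug, so the values describe the knockdown within cisplatin-treated cells and not a response to cisplatin. The design text speaks of an established knockdown line, and nothing in the labels says that replicates were grown or derived separately. The p-values therefore measure only how much these libraries vary, which may be technical variation.

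Libraries held 12746051 to 14280962 expected counts in the knockdown and 11560977 to 16059158 in the control. Rap1gds1 was at 2.63 ± 0.19 CPM (counts scaled to effective library size) in the knockdown and 16.2 ± 0.80 CPM in the control (SD, n = 4 each), low in every library labelled as knockdown. On the leading principal component, which carried 29.2% of the variance, knockdown replicate 4 lay at -20.9, the other knockdown libraries at -9.58 to -8.86 and the controls at 8.86 to 16.5. Of 11 kidney tubule markers 4 had enough counts to be tested (Aqp1, Pax8, Lrp2 and Cubn), led by the water channel Aqp1 at 127 ± 3.63 CPM in the knockdown and 155 ± 6.07 CPM in the control (SD, n = 4 each), and Hnf4a, Slc22a2 and Umod had no count in any library. Epithelial markers were low, with a summed level of 14.2 to 16.8 CPM in the knockdown and 15.7 to 17.6 CPM in the control over 4 of 5 genes tested. Marker support for the labelled kidney epithelium was thus partial.

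The promoters of the family are shown because AP-1 genes are themselves read out through cyclic AMP response and AP-1 elements close to their start sites. The RefSeq promoter table, on GRCm38.p6, matched 7 of the 8 members (all but Fosl1), and the windows below are the 250 bases before the start in that table, 5′ to 3′ on the gene's strand. For Fosb that start lies within the gene's full span, so 73 bases of its window, TGACG included, fall inside the span given for the gene, and the same holds for 38 bases of the Atf2 window, which is not shown. The motifs searched on either strand were the full cyclic AMP response element TGACGTCA, the AP-1 element TGANTCA, the variant TGACATCA, the 5-base core TGACG of the cyclic AMP response element, which also lies within the full element, and the Sp1 motif GGGCGG. Capitals mark TGACG in Fos, Fosb and Junb and TGACATCA in Jun. Fosl2 is shown since it was the member that passed the test, and none of these motifs but Sp1's was found in its window.
Fos: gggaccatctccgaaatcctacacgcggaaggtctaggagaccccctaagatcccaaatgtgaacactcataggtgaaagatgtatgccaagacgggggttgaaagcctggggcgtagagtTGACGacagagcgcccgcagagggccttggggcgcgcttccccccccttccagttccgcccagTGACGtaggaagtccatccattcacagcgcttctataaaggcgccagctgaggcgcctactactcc
Fosb: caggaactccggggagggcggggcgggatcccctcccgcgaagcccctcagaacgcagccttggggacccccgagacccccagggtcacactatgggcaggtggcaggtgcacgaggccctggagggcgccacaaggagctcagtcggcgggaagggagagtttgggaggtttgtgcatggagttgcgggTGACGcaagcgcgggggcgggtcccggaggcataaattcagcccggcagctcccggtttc
Junb: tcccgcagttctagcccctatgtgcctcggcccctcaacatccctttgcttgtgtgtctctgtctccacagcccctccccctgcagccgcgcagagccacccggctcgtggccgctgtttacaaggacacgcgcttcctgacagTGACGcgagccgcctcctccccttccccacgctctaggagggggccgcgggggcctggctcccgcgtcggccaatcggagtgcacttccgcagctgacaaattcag
Jun: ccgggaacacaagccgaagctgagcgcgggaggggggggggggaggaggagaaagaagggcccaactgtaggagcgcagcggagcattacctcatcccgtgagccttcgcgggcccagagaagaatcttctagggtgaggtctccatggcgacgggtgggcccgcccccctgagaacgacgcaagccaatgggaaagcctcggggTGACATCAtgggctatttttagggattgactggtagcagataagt
Fosl2: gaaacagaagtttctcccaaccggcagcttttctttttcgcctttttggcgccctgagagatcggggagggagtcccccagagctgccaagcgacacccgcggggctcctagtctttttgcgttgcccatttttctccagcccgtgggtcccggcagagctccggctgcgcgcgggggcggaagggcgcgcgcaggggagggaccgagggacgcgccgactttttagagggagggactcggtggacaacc

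The windows lie at chr12:85473640-85473889 on the plus strand for Fos, chr7:19310046-19310295 on the minus strand for Fosb, chr8:84978749-84978998 on the minus strand for Junb, chr4:95052223-95052472 on the minus strand for Jun and chr5:32136222-32136471 on the plus strand for Fosl2. The core TGACG stood at bases -66 to -62 and -129 to -125 before the start of Fos, at -60 to -56 before Fosb and at -106 to -102 before Junb. Of the 7 windows 3 held it, against 17.8% of the 32851 windows of the table. The variant TGACATCA stood at bases -45 to -38 before Jun, the 1 member with it, against 2.93% of all windows. The full element TGACGTCA was in 0 of the 7 member windows and in 1.55% of all windows, and TGANTCA was in 0 of the 7 and in 6.75% of all. The Sp1 motif was in 5 of the 7 and in 32.7% of all. Those windows were not limited to tested genes, as the members are. Of 9289 tested genes with a window, 6039 held the Sp1 motif, 2883 TGACG and 183 TGACATCA. The full element was in 294 of them and TGANTCA in 483. The shares over all windows are thus no like-for-like background for the members. A match is a run of letters and was not tested as a binding site.

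Transcripts of the AP-1 family differed little between knockdown and control. Fosl2 was the 1 of 8 members that passed the test, at 87.1% of its control level, and no member rose. Among all tested genes edgeR called 20.2% at an adjusted p under 0.05, 11.1% higher and 9.15% lower in the knockdown, so 1 call in 8 is near the background. At an unadjusted p under 0.05 there were 2 members, Fosl2 and Fosb, both lower, against 32% of all genes in either direction and 15.6% lower. DESeq2 and limma voom also called Fosl2 lower and no member higher, where they called 7.92% and 8.91% of all genes lower. The log2 difference was below 0 in 5 of the 8, against 51% of all genes, and neither tool nor edgeR gave the other 7 a call. On the CPM scale the groups of 4 libraries separated in 0 of the 8, against 21.1% of all genes. On the authors' FPKM (fragments scaled to transcript length and library size) they separated in 4, Fosb, Fosl1, Fosl2 and Jun, all lower in the knockdown, against 22.1% of all genes in either direction and 15.5% lower. The gaps were narrow. The highest knockdown and lowest control values were 82.84 and 82.85 FPKM for Fosl1 and 5.91 and 5.94 FPKM for Fosl2. They were 39.34 and 39.64 FPKM for Fosb and 252.1 and 255.24 FPKM for Jun. On this scale the median log2 difference of all genes was itself -0.05. The members' median log2 difference, given throughout as knockdown minus control, was -0.03, and their median absolute difference was 0.05, against -0.0033 and 0.12 over all tested genes. The all-gene medians take in genes at every level, and absolute differences scatter more at low counts. No comparison with genes of like level was made.

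**Figure D1:**
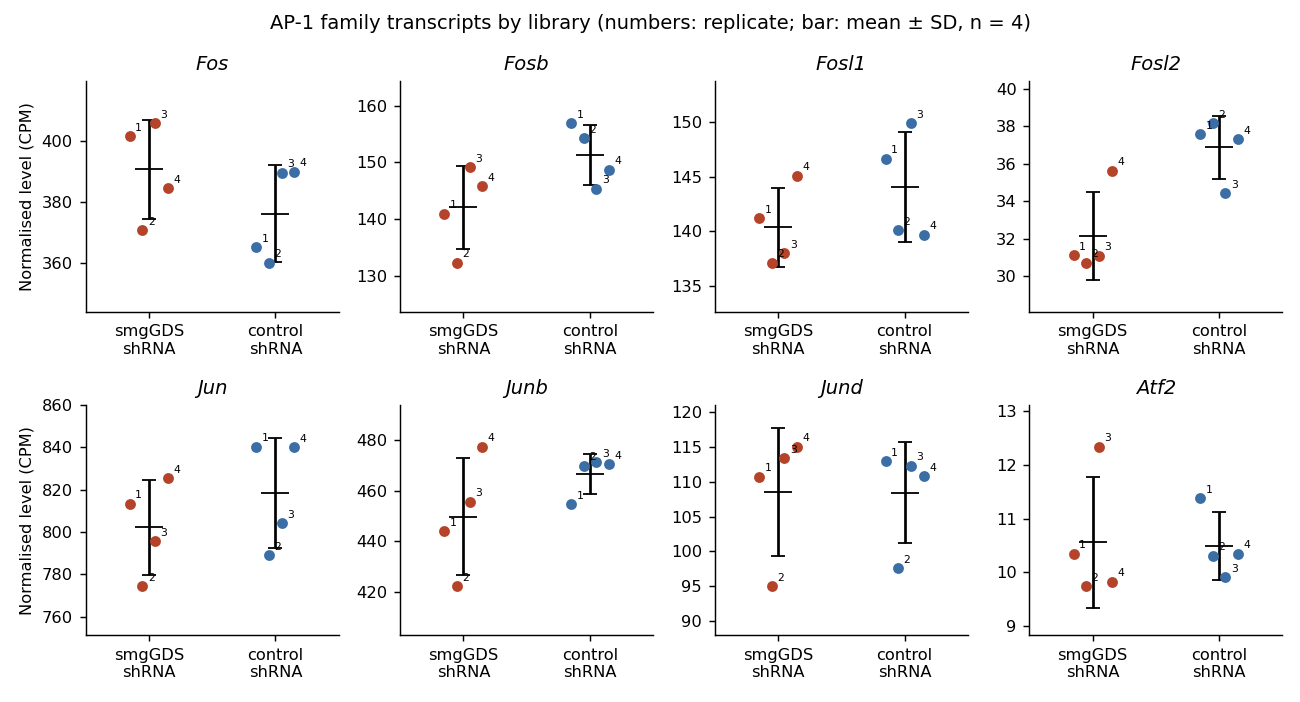
TMM-normalised level of each AP-1 gene in CPM (y axes, which do not start at 0) in the 4 smgGDS shRNA libraries and the 4 control shRNA libraries. Points are libraries numbered by replicate, and bars give the mean and SD. Groups overlap in every panel, Fosl2 comes nearest to separation with 3 knockdown libraries at 30.7 to 31.1 CPM below all controls, and knockdown replicate 2 is the lowest knockdown library in all 8 panels.

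Fosl2 encodes FRA-2, a FOS-family protein without the strong activation domain of FOS. The gene lies at chr5:32136472-32157840 on the plus strand of GRCm38.p6, the build of all positions given here. It was at 31.1, 30.7, 31.1 and 35.6 CPM in knockdown replicates 1 to 4, against 37.6, 38.2, 34.4 and 37.3 CPM in control replicates 1 to 4. Of the knockdown libraries 3 lay below all controls, while knockdown replicate 4 lay inside the control range. The mean was 32.1 ± 2.34 CPM in the knockdown and 36.9 ± 1.68 CPM in the control (SD, n = 4 each), a log2 difference of -0.20 (SE 0.07, edgeR quasi-likelihood adjusted p = 0.025). The 95% interval ran from 79.4% to 95.4% of control, and in bulk RNA fewer cells of a type and less RNA per cell cannot be told apart. Its FPKM was 5.21, 5.17, 5.19 and 5.91 in the knockdown, against 6.54, 6.72, 5.94 and 6.43 in the control, without overlap, as for the 3 other members named above. The call was lost when any of 6 libraries was left out, namely knockdown replicate 1, 2 or 3 or control replicate 1, 2 or 4, with edgeR adjusted p between 0.0502 and 0.0748. Without knockdown replicate 4, the library that stood apart, the difference was -0.25 with an edgeR adjusted p of 0.00627, where 6.87% of all genes were called lower. Of the fibroblast and pericyte markers 2 of 3 tested, Dcn and Pdgfrb, were higher in the knockdown, against 11.1% of all tested genes. That count was 1 on FPKM or without knockdown replicate 3 or 4 or control replicate 2 or 3, and 0 at an adjusted p under 0.01. Levels were low. Mean CPM in knockdown and control was 6.06 and 4.33 for Dcn, 12.5 and 9.76 for Pdgfrb and 3.07 and 2.36 for Cspg4. Their summed level was 19.1 to 24.0 CPM in the knockdown and 14.9 to 19.0 CPM in the control. Lum and Pdgfra were at 9 counts or fewer in any library. The leukocyte markers Cd68 and Cd14 summed to 111 to 122 CPM in the knockdown and 129 to 138 CPM in the control, with Cd14 lower, Adgre1 at 0 and Ptprc at 1 count at most, and no endothelial marker had enough counts to be tested. The tubule markers summed to 136 to 142 CPM in the knockdown and 159 to 173 CPM in the control, and most of this sum was Aqp1. Only Aqp1 among them was called (log2 difference -0.29, edgeR adjusted p = 3.33e-07). Lrp2 at 0.39, Pax8 at 0.05 and Cubn at -0.12 were not called, so the sum does not describe the tubule markers as a class. The part of these markers in the Fosl2 result was not tested.

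Fos, the immediate-early gene that gave the family its name, was abundant in every library. It lies at chr12:85473890-85477274 on the plus strand. It was at 401, 371, 406 and 384 CPM in the knockdown, against 365, 360.0, 389 and 389.8 CPM in the control. Knockdown replicates 1 and 3 exceeded all controls and the other knockdown libraries lay among them. The means were 391 ± 16.1 CPM in the knockdown and 376 ± 15.8 CPM in the control (SD, n = 4 each), with a log2 difference of 0.06 (SE 0.03, edgeR adjusted p = 0.247). The interval ran from 99.3% to 109% of control. On the authors' FPKM scale the level was 183 ± 7.32 in the knockdown and 183 ± 6.12 in the control, and the sign of the difference turned there.

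Fosb encodes a FOS protein whose spliced short form accumulates under sustained stimulation, and lies at chr7:19302696-19310118 on the minus strand. It was at 141, 132, 149 and 146 CPM in the knockdown, against 157, 154, 145 and 149 CPM in the control. Knockdown replicates 1 and 2 lay below every control and the rest overlapped with them. The log2 difference was -0.09 (SE 0.04, edgeR adjusted p = 0.0933), or 88.7% to 99.1% of control, which did not pass after adjustment. Without knockdown replicate 3 it passed, at -0.12 with an edgeR adjusted p of 0.0468, where 8.19% of all genes were called lower. The table gives 1 value per gene, so the splice forms of Fosb could not be told apart.

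Fosl1 encodes FRA-1, the FOS-family member tied to migration and invasion of epithelial cells, and lies at chr19:5447698-5455938 on the plus strand. It was at 141, 137, 138 and 145 CPM in the knockdown, against 147, 140.1, 149.9 and 139.7 CPM in the control. Knockdown replicates 2 and 3 lay below every control and the other knockdown libraries among them, with a log2 difference of -0.04 (SE 0.04, edgeR adjusted p = 0.536). Its interval ran from 92.4% to 103% of control. Fosl1 was the member whose expected counts were not whole, and in the GENCODE M21 annotation 2767 bases of it overlap Ccdc85b, a coiled-coil protein gene on the opposite strand. Ccdc85b was at 57.7 ± 5.71 CPM in the knockdown and 65.1 ± 5.13 CPM in the control (SD, n = 4 each, edgeR adjusted p = 0.0384), a call lost with DESeq2, on FPKM and without knockdown replicate 2 or 4 or control replicate 2 or 3. Whether counting used strand is not stated in the sources used here. If it did not, reads of the shared bases cannot be told apart, so the Fosl1 value is less certain.

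Among the JUN genes, Jun itself had the most counts of the family, from chr4:95049036-95052222 on the minus strand. It was at 813, 774, 796 and 825.5 CPM in the knockdown, against 840.3, 789, 804 and 840.05 CPM in the control. Only knockdown replicate 2 lay below all controls, and the ranges otherwise overlapped. The log2 difference was -0.03 (SE 0.03, edgeR adjusted p = 0.536), with an interval of 94.2% to 102% of control.

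Junb, which encodes a JUN protein that often restrains JUN at shared targets, lies at chr8:84976909-84978748 on the minus strand. It was at 444, 422, 456 and 477 CPM in the knockdown, against 455, 469.9, 471 and 471 CPM in the control. Knockdown replicates 1 and 2 lay below all controls and replicate 4 above them, and their SD of 23.0 CPM was larger than the control SD of 7.95 CPM. The log2 difference was -0.05 (SE 0.03, edgeR adjusted p = 0.256), with an interval of 92.3% to 101% of control. GENCODE M21 places 351 bases of Junb over the peroxiredoxin gene Prdx2 on the opposite strand, which was at 342 ± 10.4 CPM in the knockdown and 328 ± 3.97 CPM in the control (SD, n = 4 each, edgeR adjusted p = 0.15). The limit given for Fosl1 holds for these shared bases too.

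Jund encodes the JUN protein that most cells make without stimulation, from chr8:70697739-70700616 on the plus strand. It was at 111, 94.97, 113 and 115 CPM in the knockdown, against 113, 97.6, 112 and 111 CPM in the control. Replicate 2 was the lowest library of each group and the ranges overlapped. The means of 109 ± 9.23 CPM in the knockdown and 108 ± 7.27 CPM in the control differed by less than either SD (SD, n = 4 each). The log2 difference of 0.0033 (SE 0.05, edgeR adjusted p = 0.98) had an interval of 92.8% to 108% of control. Antisense genes annotated over Jun (Junos, 689 shared bases) and Jund (Gm11175, 919 shared bases) were not analysed here.

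Atf2, the partner that steers JUN to cyclic AMP response elements, was the scarcest member, from chr2:73816509-73892677 on the minus strand. It was at 10.3, 9.74, 12.3 and 9.83 CPM in the knockdown, against 11.4, 10.3, 9.91 and 10.4 CPM in the control. Knockdown replicate 3 lay above all controls, and replicates 2 and 4 lay below them. With 121 to 185 counts per library its interval was the widest, 86.1% to 117% of control around a log2 difference of 0.01 (SE 0.11, edgeR adjusted p = 0.979). A change of Atf2 within those bounds is compatible with these values, and the smallest change that could be detected was not worked out.

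**Figure D2:**
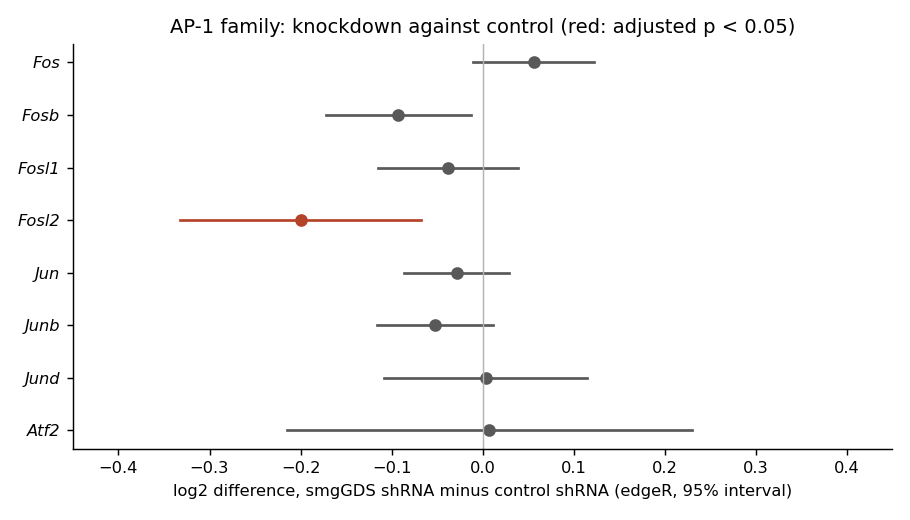
Log2 difference of each AP-1 gene, knockdown minus control, from edgeR (x axis), with its 95% interval as a line, and genes down the y axis. The Fosl2 interval, from -0.33 to -0.07, lies below 0 with an adjusted p of 0.025, and the Fosb interval also lies below 0 but its adjusted p is 0.0933.

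The size of these differences depended on how libraries were scaled. With library totals alone 4 members were called lower, Fosb at -0.15, Fosl2 at -0.26, Jun at -0.08 and Junb at -0.11, where 16.9% of all genes were called lower. On the authors' FPKM, tested with limma on log2(FPKM + 0.5), 3 were called lower, Fosb at -0.14, Fosl2 at -0.24 and Junb at -0.11, against 13% of all genes. Over all genes the median log2 difference was -0.06 with library totals and -0.05 on FPKM, and the Jun difference lay near that shift. The signs of Jund and Atf2 turned to lower in both of these settings, and no setting called any member higher.

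**Figure D3:**
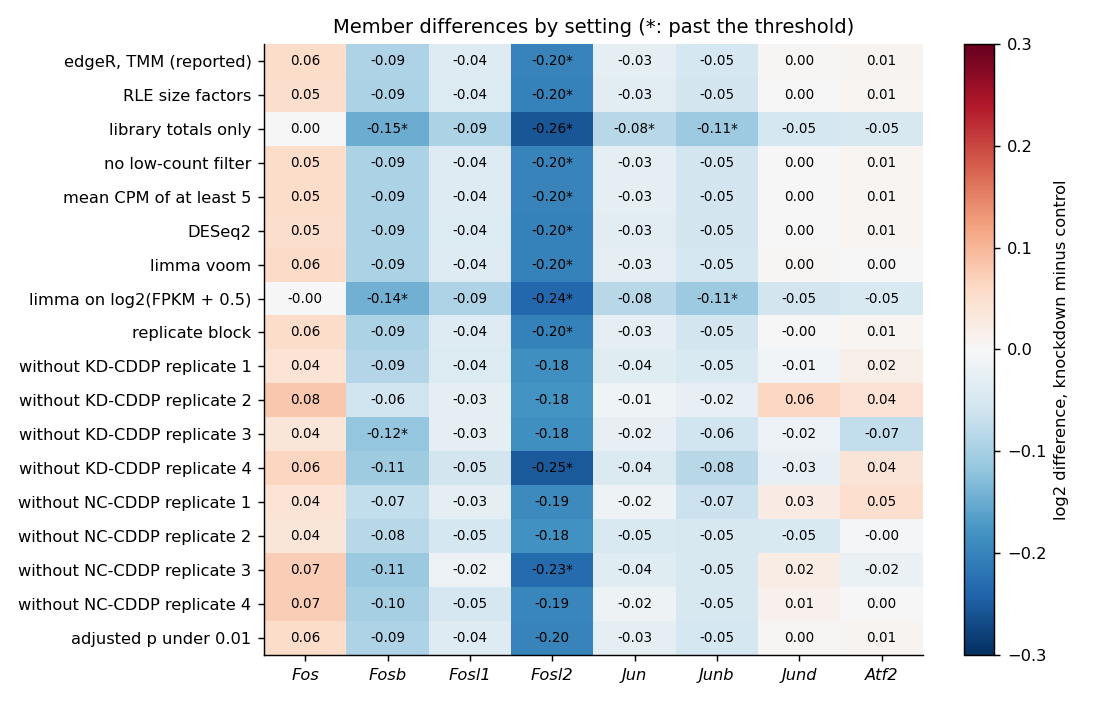
Log2 difference, knockdown minus control, of the 8 members (columns) under the reported fit and 17 alternatives (rows), coloured from blue (lower in the knockdown) to red (higher). Stars mark values past the threshold of that row. The Fosl2 column lies between -0.26 and -0.18 in every row, while its star is absent from 6 of the 8 rows that leave out a library and from the row with an adjusted p under 0.01.

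Compared per length, the family was dominated by Jun, Junb and Fos. Jun averaged 247 ± 5.69 FPKM in the knockdown and 262 ± 7.11 FPKM in the control, and Junb 239.6 ± 10.9 FPKM in the knockdown and 258 ± 4.83 FPKM in the control (SD, n = 4 each). These levels overlapped, and Jun was above Junb in 5 of 8 libraries. Next came Fos at 183 FPKM in either group and Fosl1 at 80.7 ± 1.71 FPKM in the knockdown and 86.1 ± 2.74 FPKM in the control, each apart from its neighbours in all 8 libraries. Fosb averaged 37.6 ± 1.72 FPKM in the knockdown and 41.6 ± 1.71 FPKM in the control. It overlapped with Jund, which averaged 37.0 ± 2.97 FPKM in the knockdown and 38.4 ± 2.28 FPKM in the control, and was above it in 6 of 8 libraries. Fosl2 averaged 5.37 ± 0.36 FPKM in the knockdown and 6.41 ± 0.33 FPKM in the control, and Atf2 closed the order at 2.56 ± 0.33 FPKM in the knockdown and 2.65 ± 0.16 FPKM in the control (SD, n = 4 each). By mean FPKM Jun ranked 412 and Junb 422 among 11576 tested genes, whereas Fosl2 ranked 6027 and Atf2 7778.

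The make-up of the pool differed little between groups. Fos made up 22.0 ± 0.70% of the summed FPKM of the 8 genes in the knockdown and 20.8 ± 0.60% in the control, with ranges of 21.0% to 22.5% in the knockdown and 20.2% to 21.4% in the control. Jun made up 29.6 ± 0.47% in the knockdown and 29.8 ± 0.70% in the control (SD, n = 4 each). Fosl2 made up 0.645 ± 0.036% in the knockdown and 0.73 ± 0.041% in the control, and no share separated the groups. The FPKM of the FOS family over that of the JUN family was 0.563 to 0.597 in knockdown libraries and 0.562 to 0.583 in control libraries. Summed over the 8 genes the FPKM was 832 ± 25.1 in the knockdown and 878 ± 6.56 in the control, without overlap, on a scale where the median of all genes was also lower by the shift given above. The JUN-family sum was 499 to 544 FPKM in the knockdown and 554 to 564 FPKM in the control, also without overlap. The FOS-family sum overlapped, at 295 to 314 FPKM in the knockdown and 312 to 323 FPKM in the control. No test was made on these sums, since the members were chosen with results of these libraries known.

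**Figure D4:**
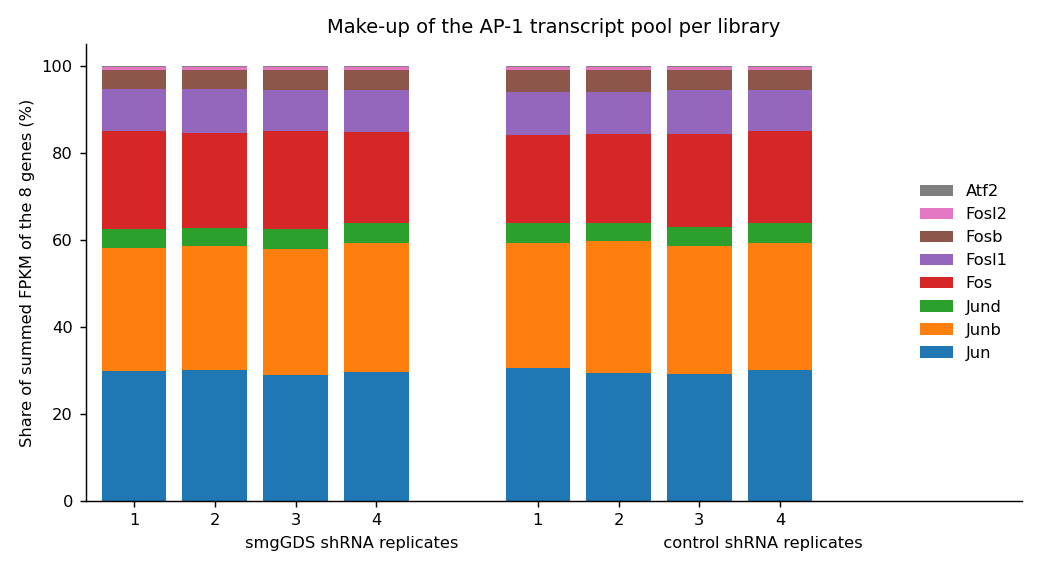
Share of each AP-1 gene in the summed FPKM of the 8 genes (y axis, %) for the 4 smgGDS shRNA libraries on the left and the 4 control shRNA libraries on the right, as stacked bars. Jun, Junb and Fos fill most of every bar, and the shares of Fos overlap between groups at 21.0% to 22.5% in the knockdown and 20.2% to 21.4% in the control.

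Within the knockdown group the members shared their lowest library. Knockdown replicate 2 was the lowest of the 4 knockdown libraries for 8 of 8 members, a position it held in 24.9% of all tested genes and in 29.8% of the 1979 genes with a mean of at least 100 CPM. Of 27 immediate-early genes outside the family it was the lowest in 11. Some member ranks of knockdown replicate 2 were near ties. Atf2 was at 9.74 CPM there and 9.83 CPM in knockdown replicate 4. Fosl2 was at 30.71 CPM there and 31.08 CPM in knockdown replicate 3, and Fosl1 at 137.15 and 138.02 CPM in the same libraries. Knockdown replicate 4 was the highest for 5 members, against 29.2% of all genes. In the control group no library was lowest for more than 3 members. Replicate SD was 1.70% to 11.5% of the mean over the members and groups.

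The genes most like Fosl2 were searched among 7322 genes with a mean of at least 10 CPM, by Pearson correlation of log2 CPM over the 8 libraries. The nearest were Zbtb9, a zinc finger gene (r = 0.984), Pmaip1, which encodes the pro-apoptotic protein NOXA (r = 0.98), and the zinc finger gene Zfp646 (r = 0.969). These values are descriptions over libraries that share the group difference. Zbtb9 was at 12.2 ± 1.70 CPM in the knockdown and 15.6 ± 0.71 CPM in the control, with a log2 difference of -0.36 (SE 0.10). Pmaip1 was at 12.2 ± 1.34 CPM in the knockdown and 14.8 ± 0.96 CPM in the control (log2 difference -0.29, SE 0.10). Zfp646 was at 108 ± 4.08 CPM in the knockdown and 119 ± 3.62 CPM in the control (log2 difference -0.14, SE 0.04; SD, n = 4 each). Their edgeR adjusted p lay between 0.00853 and 0.0339, and Pmaip1 lost its call without 5 of the 8 libraries in turn and with DESeq2. These genes were picked for following Fosl2, a called gene, over the same libraries. Their differences and adjusted p thus follow from that choice and add no evidence of their own.

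Called differences were found in each of 7 lists of genes around the family, where the shares over all genes were again 11.1% higher and 9.15% lower. For the list counts given below with library totals, the shares over all genes were 6.62% higher and 16.9% lower. For those on FPKM they were 5.17% higher and 13% lower. Differences below are on the log2 scale from the edgeR fit, and each named change passed the adjusted threshold. Among 15 other bZIP partners of JUN and FOS, 3 rose and 0 fell, with a median of 0.02. They were the stress-induced Ddit3 (CHOP) at 0.18 (SE 0.03), Atf5 at 0.20 (SE 0.05) and the small MAF protein gene Maff at 0.13 (SE 0.03). Library totals left 2 higher and 1 lower and FPKM left 1 higher, each with a median of -0.03, and Maff was called in neither. Atf3, a stress-induced partner of JUN chosen after its values were seen, was at 336 ± 3.01 CPM in the knockdown and 338 ± 6.07 CPM in the control (SD, n = 4 each, edgeR adjusted p = 0.891).

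Of 19 upstream kinases 5 were higher and 1 was lower, with a median of -0.04. The ribosomal S6 kinase gene Rps6ka3 (RSK2), whose product acts on FOS below ERK, rose by 0.37 (SE 0.07), Mapk3 (ERK1) by 0.16 (SE 0.04) and Map2k2 (MEK2) by 0.18 (SE 0.05), while Map2k7 (the JNK activator MKK7) fell by 0.18 on the log2 scale (SE 0.05). Library totals left 2 higher and 2 lower, FPKM left 1 higher and 2 lower, and 3 were higher without control replicate 1, with Mapk3 and Map2k2 called neither with library totals nor on FPKM, and Map2k2 not without control replicate 2. Mapk8 (JNK1), named after its values were seen, was at 11.3 ± 1.67 CPM in the knockdown and 8.65 ± 1.26 CPM in the control (SD, n = 4 each, edgeR adjusted p = 0.0177), a call lost on FPKM and without knockdown replicate 1 or 4 or control replicate 1. Of 11 MAP kinase phosphatases 1 fell, Dusp4 at -0.22 (SE 0.05), and the median was -0.07. Library totals gave 6 falls, where 16.9% of all genes were called lower. On FPKM 2 fell, where 13% of all genes were called lower. The count was also 2 without knockdown replicate 1 or control replicate 4, with other low-count filters and with the replicate block. Of 6 genes for the serum response factor and its partners, which drive Fos transcription, Srf rose by 0.22 (SE 0.05) and Elk4 fell by 0.18 on the log2 scale (SE 0.06), the Elk4 call being lost without knockdown replicate 1 or control replicate 2, and the median was 0.12.

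Of 19 genes for turnover and coactivation of JUN and FOS proteins 5 were higher and 3 lower, with a median of 0.03. Fbxw7, the F-box protein that marks phosphorylated JUN for degradation, was at 18.4 ± 1.91 CPM in the knockdown and 27.2 ± 2.27 CPM in the control (SD, n = 4 each, log2 difference -0.57, SE 0.08, edgeR adjusted p = 1.51e-06). Rfwd2, which encodes the ubiquitin ligase COP1, also known to act on JUN, was at 33.2 ± 1.20 CPM in the knockdown and 24.9 ± 1.09 CPM in the control (SD, n = 4 each, log2 difference 0.41, SE 0.07, edgeR adjusted p = 1.53e-05). The helicase gene Ascc3 of the ASC-1 coactivator complex rose by 0.46 (SE 0.08). Library totals left 3 higher and 3 lower, FPKM left 2 higher and 3 lower, each with a median of -0.03, and the median was -0.01 without knockdown replicate 4.

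Of 27 immediate-early genes outside the family, Maff among them, 7 were higher and 6 lower, with a median of -0.03. Ctgf, a secreted matricellular protein gene, rose by 0.32 (SE 0.04), the stress-response gene Ier3 by 0.23 (SE 0.03) and Myc by 0.21 (SE 0.03), while the pseudokinase gene Trib1 fell by 0.28 on the log2 scale (SE 0.05). Egr1, which shares drivers with Fos and was chosen after its values were seen, was at 416 ± 17.3 CPM in the knockdown and 415 ± 11.6 CPM in the control (SD, n = 4 each, edgeR adjusted p = 0.926). Library totals left 5 higher and 10 lower, against 6.62% higher and 16.9% lower of all genes. Of 28 genes reported elsewhere as AP-1 targets 7 were higher and 3 lower, with a median of 0.0024. Cav1 (caveolin-1) rose by 0.32 (SE 0.04) and Vim (vimentin) by 0.21 (SE 0.03), while the cytokine gene Lif fell by 0.32 on the log2 scale (SE 0.05). Library totals left 4 higher and 5 lower and FPKM left 4 higher and 3 lower, each with a median of -0.05. Leaving out knockdown replicate 4 changed no count of the 7 lists by more than 1 gene, but other libraries moved some counts further. Without knockdown replicate 3, 7 of the turnover and coactivation genes were higher and 4 of the immediate-early genes were lower. The immediate-early count was also 4 lower genes without control replicate 1 or 2.

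**Figure D5:**
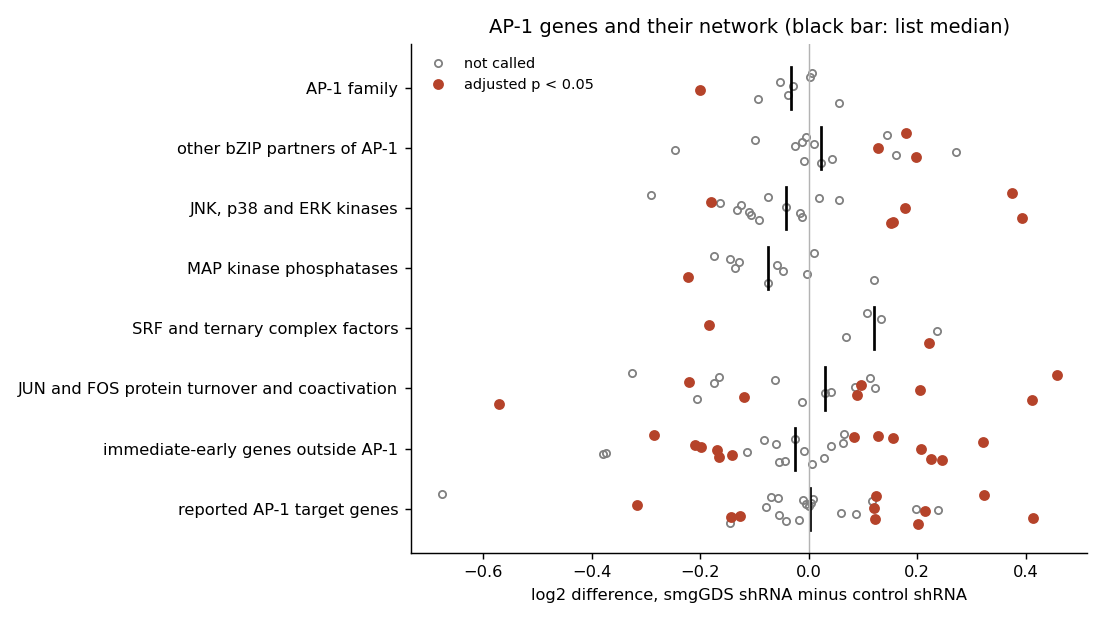
Log2 difference, knockdown minus control (x axis), of the AP-1 genes and of 7 lists of genes around them (y axis), 1 point per tested gene. Filled red points passed an adjusted p of 0.05, open points did not, and black bars are list medians. The AP-1 row holds 1 filled point, Fosl2 at -0.20, and the row of turnover and coactivation genes spans Fbxw7 at -0.57 to Ascc3 at 0.46.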

How the data were processed

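The labels describe oligo(dT) selection and NEBNext Ultra libraries, and a saline group in the protocol text was not analysed here. The authors deposited expected counts, some not whole, and FPKM for each gene, per the file headers. The submitters' processing notes name RSEM, edgeR, DESeq2, HISAT2 2.4, StringTie 1.3.1, Bowtie2 2.2.8 and fastp 0.18.0, without roles, and genome GRCm38.p6. Which gene annotation and strandedness were used is not given in these sources.

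Rounded expected counts entered edgeR 4.0.16 under R 4.3.3 (filterByExpr, TMM factors, robust quasi-likelihood fit, two-sided F-test on group) over 11576 genes, with Benjamini-Hochberg adjustment at 0.05. Standard errors came from the fold change and F statistic. Replicates differed by more than sampling noise (chi-square per degree of freedom 1.94 to 3.98). A count of 3 corresponds to 0.187 to 0.259 CPM, for counting error only. The procedure was tested on simulated data whose changed genes all differed by more than any member did here. That does not show how well changes of the members' size are found. Alternatives were RLE factors, library totals, other filters, DESeq2 1.42.0, limma 3.58.1 (voom, and log2 FPKM with pseudocount 0.5), a threshold of 0.01, a replicate block and leaving out each library.

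The members, the 7 gene lists around them and the tests were chosen with earlier results of these data known. Named were the 8 members, Rap1gds1, up to 4 called genes per list with the smallest adjusted p, and the 3 genes most correlated with a called member. Of the genes this rule names, 2 are not reported here.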

Additional observations from a re-analysis of the deposited data

Results flagged for a closer look

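Among 68 groups of 4 libraries examined for the named genes, 6 held a library far from the other 3. Chance flags about 1 in 20 such groups where genes are not picked by their values, as many were here. In the AP-1 family, Fosl2 was at 35.6 CPM in knockdown replicate 4, against 30.7 to 31.1 CPM in the other knockdown libraries. Junb was at 455 CPM in control replicate 1, against 469.9 to 471 CPM in the other controls. Jund was at 97.6 CPM in control replicate 2, against 111 to 113 CPM in the other controls. Map2k7 was at 70.8 CPM in knockdown replicate 3 (others 64.9 to 65.8), Map2k2 at 65.0 CPM in knockdown replicate 2 (others 72.1 to 73.6) and Zbtb9 at 14.7 CPM in knockdown replicate 4 (others 11.2 to 11.6). Zbtb9 was picked for following Fosl2, so its flag is not separate from the Fosl2 flag in the same library.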

How the results depend on the processing

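Over all genes 1285 were higher and 1059 lower. Library totals gave 766 and 1951, FPKM gave 598 and 1508, and a threshold of 0.01 gave 825 and 580. Members called lower were 4 with library totals, 3 on FPKM, 0 at 0.01 and 0 to 1 with a library left out, where the member called without knockdown replicate 3 was Fosb in place of Fosl2. With a library left out 1033 to 1227 genes were higher and 802 to 997 lower. No alternative called a member higher. Fos turned to -0.00072 on FPKM. Jund was -0.053 with library totals, -0.055 on FPKM, -0.00039 with the replicate block and -0.046 to 0.062 with a library left out. Atf2 was -0.049 with library totals, -0.047 on FPKM and -0.074 to 0.051 with a library left out. The cause was not tested beyond the median shift of all genes.

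Same-numbered libraries of the 2 groups had deviations that correlated at -0.04 to 0.08 over all tested genes. Of the 8 libraries 6 correlated best with their own number. The correlation takes in genes at every level, so it cannot settle whether the libraries were pairs. The reported fit did not pair them. With the replicate block 1425 genes were higher and 1235 lower, and Fosl2 was at -0.20 (edgeR adjusted p = 0.0147). The SE went from 0.054 to 0.039 for Jund and from 0.033 to 0.027 for Fos, and was 0.11 in both fits for Atf2.

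Atf2 had the fewest counts and the widest interval of the members, and what set that width was not tested. Differences of a few percent in Fos, Jun and Junb lie within their intervals.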

Other observations

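The deposited annotation names 52 bZIP genes, of which 42 were tested, 8 higher and 2 lower in the knockdown, with a median log2 difference of 0.01, where 11.1% of all tested genes were higher and 9.15% lower. Library totals gave 5 higher and 7 lower with a median of -0.05, against 6.62% higher and 16.9% lower of all genes. FPKM gave 3 higher and 5 lower, against 5.17% higher and 13% lower of all genes, and without knockdown replicate 4 there were 7 and 2. Without knockdown replicate 1 or 2 or control replicate 1, 2 or 4 there was 1 lower. Chosen after their values were seen, Nfil3 and Tef, bZIP factors known as repressor and activator at the same D-box elements, had opposite differences. Nfil3 was at 71.4 ± 3.25 CPM in the knockdown and 57.9 ± 1.20 CPM in the control (log2 difference 0.30, SE 0.05, edgeR adjusted p = 1.23e-05). Tef was at 66.1 ± 8.31 CPM in the knockdown and 83.8 ± 4.23 CPM in the control (-0.34, SE 0.07, edgeR adjusted p = 0.000978; SD, n = 4 each). Each kept its side of the threshold in all 17 alternatives.

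Genes with the AP-1 element TGANTCA in the 250 bases before a start numbered 483 among the 9289 tested genes with a RefSeq window. Of these 63 were higher and 43 lower, 13.0% and 8.90%, against 10.8% and 9.15% of all genes with a window. The median log2 difference was -0.00074 with the element and -0.0050 over all. Genes with the full element TGACGTCA numbered 294, of which 24 were higher and 24 lower, 8.16% each. These lists were made after the values were seen.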
